A study of Mus musculus with 8 samples.

Results

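Mitochondrial fusion, fission and mitophagy were followed through 10 genes in neonatal cardiomyocytes (NCMs) of mice exposed in utero to diesel exhaust (DE) or filtered air (FA). The genes are Mfn1, Mfn2 and Opa1 for fusion, Dnm1l, Fis1 and Mff for fission, and Pink1, Bnip3, Bnip3l and Fundc1 for mitophagy. They were taken from the deposited counts by Entrez identifier, and all 10 were found among 27179 genes. Each library was made from the NCMs of 1 male C57Bl/6 J heart collected at birth. C57Bl/6 J dams breathed FA or DE from embryonic day 0.5 to 17.5, in sessions on weekdays, and both groups of dams were then moved to a pathogen-free vivarium for the births. There were 4 FA libraries (replicates 2, 3, 4 and 6) and 4 DE libraries (replicates 1, 3, 5 and 7), and values are listed in this order. Hearts of both groups were trimmed of atria, dissociated and pre-plated with serum and Ara-C, a blocker of cell division, so that fibroblasts attached and cardiomyocytes stayed in suspension, which enriches cardiomyocytes without making them pure. Neither the labels nor the methods say which pups shared a dam, so the p-values measure the spread between hearts and not between litters.

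Mitochondria in cardiomyocytes fuse and divide continuously. The mitofusins Mfn1 and Mfn2 join outer membranes, and Opa1 joins inner membranes and holds the cristae in shape. For division, the dynamin-related GTPase Drp1, encoded by Dnm1l, is brought to the outer membrane by adaptors such as Mff and Fis1. Damaged or surplus mitochondria are removed by mitophagy, through the kinase Pink1 with the ubiquitin ligase Parkin, or through the outer membrane receptors Bnip3, Bnip3l (also called Nix) and Fundc1, which bind the autophagosome directly. In mice, loss of both mitofusins from the developing heart is lethal, and Mfn2 and Pink1 also take part in the exchange of mitochondria around birth, when the heart turns from glucose to fatty acids.

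Libraries held 17943024 to 39839737 counted fragments, and each of the 10 genes had between 402 and 21690 fragments per library. All 10 genes passed the filter on low counts. Levels are given as CPM, the fragments of a gene per 1000000 fragments of its library, after TMM factors corrected for differences in library composition. Groups were compared with edgeR's quasi-likelihood (QL) test, and a gene was called when its p-value, adjusted over all tested genes, did not exceed 0.05 and DE and FA differed by at least 25% (the higher over the lower). In the same fit 5.80% of 14966 tested genes were called, 3.58% as higher and 2.22% as lower in DE. All 8 cardiomyocyte markers were detected, and their summed level was 51930 to 57320 CPM in FA and 39810 to 46330 CPM in DE, with Myh6 and Pln called as lower. Without Myh6, the most abundant of them, the sums were 28810 to 33190 CPM in FA and 25380 to 30900 CPM in DE and overlapped, and all 8 genes had estimates below 0, from -0.06 for the troponins Tnnt2 and Tnni3 to -0.62 for the calcium release channel Ryr2 and -0.67 for Myh6, with a median of -0.18 on the log2 scale. Fibroblast markers went the other way, with sums of 1332 to 2212 CPM in FA and 2445 to 4068 CPM in DE over 7 genes, of which Col1a1 and Dcn were called as higher. The sums of endothelial markers (846.5 to 1119 CPM in FA and 870.1 to 1313 CPM in DE), smooth muscle and pericyte markers (458 to 659 and 394 to 553), erythroid markers (760 to 1881 and 1209 to 2022) and leukocyte markers (10.4 to 16.1 and 14.1 to 21.5) overlapped between groups. In the erythroid list all 6 tested genes had estimates above 0, and Slc4a1, the anion exchanger of red blood cells, was called as higher (0.95 on the log2 scale, adjusted p = 0.0422). Fewer cells of a type and less RNA per cell cannot be told apart in these samples, and the part of cell composition in the results was not tested.

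Of the 10 genes, Bnip3 rose and Mfn2 and Opa1 fell in DE, and the other 7 were not called. The 3 called genes were 30% of the 10, beside 5.80% of all tested genes. The 10 genes were chosen with earlier results of these data known. Bnip3 was 2.17-fold higher, Mfn2 was lower by 24.8% and Opa1 by 29.5%. At an unadjusted p under 0.05, 6 of the 10 differed, against 25.6% of all tested genes. The CPM ranges of the groups did not overlap for 4 genes that were lower (Mfn1, Mfn2, Opa1 and Pink1; 7.26% of all tested genes) and for Bnip3, which was higher (7.43% of all tested genes). Ranges without overlap in either direction were found for 14.7% of all tested genes. The median log2 fold change of the 10 genes was -0.19, beside 0.004 over all tested genes.

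**Figure D1:**
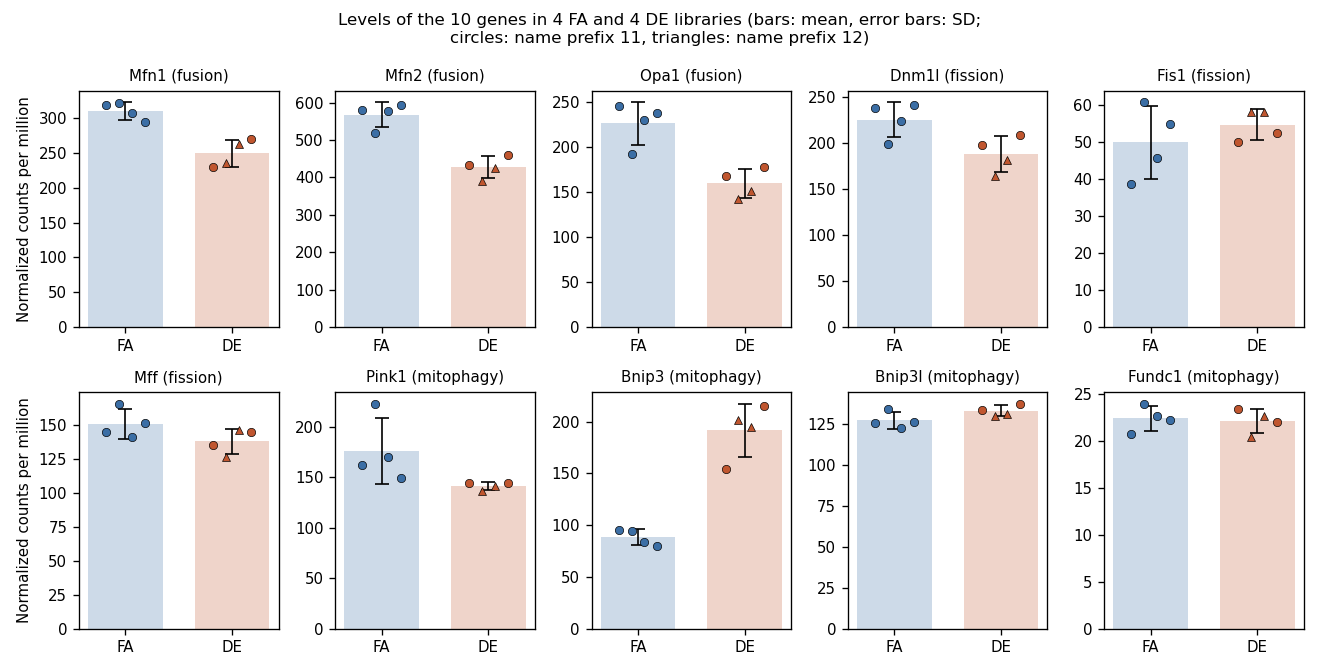
Normalized counts (CPM) of the 10 genes in each library, with bars for the mean of 4 libraries, error bars for the SD, circles for libraries with the number 11 in their name and triangles for those with 12. All 4 DE libraries lie above all 4 FA libraries for Bnip3 and below them for Mfn1, Mfn2, Opa1 and Pink1, while the groups overlap for the other 5 genes.

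Among the fusion genes, Mfn2 is the more abundant mitofusin in the heart and also tethers mitochondria to the sarcoplasmic reticulum. Mfn2 (Entrez gene 170731, minus strand of chromosome 4 at 147873586 to 147904909 in GRCm38.p6) was at 579.9, 518, 579 and 595 CPM in the FA hearts. The DE hearts stood at 434, 391, 425 and 460.1 CPM. Every DE library was below every FA library, and the smallest gap was between FA replicate 3 and DE replicate 7. The mean went from 568 ± 34.2 CPM to 428 ± 28.7 CPM (SD over 4 hearts), or -0.41 on the log2 scale with an SE of 0.09 (edgeR QL test, adjusted p = 0.0300).

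Opa1 (Entrez gene 74143, chromosome 16 from 29579281 to 29663127, plus strand), the inner membrane GTPase, was at 246, 192, 229.9 and 239 CPM in the FA hearts. Levels in DE were 168, 142, 152 and 178 CPM. The groups did not overlap, and the lowest FA library was again replicate 3. The mean went from 227 ± 23.9 CPM to 159.9 ± 16.2 CPM (SD over 4 hearts), or -0.50 on the log2 scale with an SE of 0.11 (edgeR QL test, adjusted p = 0.0274).

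Mfn1 (Entrez gene 67414, chromosome 3 from 32529443 to 32579225, plus strand), the second mitofusin, was at 319.6, 322, 307 and 294 CPM in the FA hearts. The 4 DE values were 230.2, 236, 263 and 269.6 CPM. The groups did not overlap here either, but the gene was not called. Its log2 fold change was -0.32 (95% interval -0.52 to -0.11, edgeR QL test, adjusted p = 0.0666), just short of 25%. DESeq2, edgeR's likelihood ratio test and a fit with 1 surrogate variable gave adjusted p-values of 0.0107, 0.0449 and 0.0194 for Mfn1, but in each of them the difference stayed under 25%.

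The calls of Mfn2 and Opa1 depended on single libraries and on the number in the sample names. The number 12 stands in the names of DE replicates 3 and 5 and the number 11 in those of the other 6 libraries, and the labels do not say what they mean. Within number 11 alone, Mfn2 was at -0.35 (edgeR QL test, adjusted p = 0.173) and Opa1 at -0.39 (adjusted p = 0.164). With the number as a term in the fit the adjusted p-values were 0.127 and 0.116. Number 12 holds DE libraries only, so no value within it could be had. Mfn2 lost its call without FA replicate 2, 4 or 6 or DE replicate 3 or 5 (adjusted p = 0.0950, 0.0968, 0.0533, 0.0961 and 0.0652). Opa1 lost its call without FA replicate 2 or 4 or DE replicate 3 or 5 (adjusted p = 0.0943, 0.0843, 0.0854 and 0.0647). The log2 fold changes themselves stayed between -0.45 and -0.37 for Mfn2 and between -0.58 and -0.45 for Opa1 when single libraries were left out. Over all tested genes, 868 calls became 260 within number 11 alone and 448 with the number as a term. They became 249, 237 and 826 without FA replicate 2, 4 or 6, and 268 and 526 without DE replicate 3 or 5. When the test itself asked for a difference beyond 25%, the adjusted p was 0.566 for Mfn2 and 0.335 for Opa1. The summed level of cardiomyocyte markers was lower in every DE heart than in any FA heart too, though not once Myh6 was taken out, and its part in these results was not tested.

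Levels of long against short transcripts also varied between libraries. The change in log2 level with each doubling of transcript length, over 13851 genes and around each gene's mean, ran from -0.075 to 0.168 in FA and from -0.177 to 0.053 in DE, and was lowest in DE replicates 5 and 3. The longest Opa1 transcript has 6230 bases, the most among the 10 genes. With offsets that remove the trends with length and GC content in each library, Opa1 was at -0.35 (adjusted p = 0.0203) and Mfn2 at -0.43 (adjusted p = 0.00936), and both were still called by edgeR's quasi-likelihood test.

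Among the fission genes none was called. Dnm1l (Entrez gene 74006, chromosome 16 from 16312228 to 16359038), which encodes the GTPase that constricts mitochondria, was at 238, 199, 224 and 241 CPM in the FA hearts. DE hearts had 198, 164, 181 and 209 CPM. Here DE replicate 7 was above FA replicate 3, so the groups overlapped. The log2 fold change was -0.26 (95% interval -0.50 to -0.03, edgeR QL test, adjusted p = 0.155), and -0.15 within number 11 alone (adjusted p = 0.606).

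The adaptors Mff and Fis1 recruit Drp1 to the outer membrane. Mff (chromosome 1 from 82724890 to 82752390) was between 141 and 166 CPM in FA and between 126 and 146 CPM in DE, a log2 fold change of -0.13 (95% interval -0.33 to 0.08). Fis1 (chromosome 5 from 136953275 to 136966234) was between 38.5 and 60.8 CPM in FA and between 50.1 and 58.1 CPM in DE, a log2 fold change of 0.13 (95% interval -0.17 to 0.43). FA replicate 2 was the lowest of all 8 libraries for Fis1 and FA replicate 3 the highest, so the spread within FA was wider than the difference between the groups. The adjusted p-values of Mff and Fis1 were 0.420 and 0.570 in edgeR's quasi-likelihood test. With the length and GC offsets Fis1 changed sign, to -0.06.

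Bnip3, a receptor of the BH3-only family that is a classic target of hypoxia-inducible factor in cardiomyocytes, had the largest difference of the 10 genes. Bnip3 (Entrez gene 12176, chromosome 7 from 138890836 to 138909506, minus strand) was at 95.3, 94.6, 83.4 and 80.1 CPM in the FA hearts. The DE hearts stood at 154, 201, 195 and 215 CPM. All 4 DE libraries were above all 4 FA libraries, and DE replicate 1 was the lowest of them. The mean went from 88.4 ± 7.74 CPM to 191 ± 26.0 CPM (SD over 4 hearts), or 1.11 on the log2 scale with an SE of 0.12 (edgeR QL test, adjusted p = 0.000628). Bnip3 was called in all 21 alternative fits, with log2 fold changes from 1.05 to 1.20 and a highest adjusted p of 0.00668, within number 11 alone. The adjusted p was 0.00321 when the test itself asked for a difference beyond 25%. The summed level of fibroblast markers was also higher in every DE heart than in any FA heart, and its part in the Bnip3 result was not tested. Exons of Bnip3 share 504 bases with the antisense transcript Gm45507 on the opposite strand, and whether the counting used strand is not stated. Exons of Dnm1l and Mff likewise share 243 and 195 bases with Gm49521 and C430014B12Rik. Those of Pink1 share 110 and 69 bases with the microRNA genes Gm27646 and Mir7019, on the same strand.

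The promoters of the 3 called genes are shown because Bnip3 and the fusion genes moved in opposite directions. They run from 250 bases before to 50 bases after a transcription start in RefSeq on GRCm38.p6 and are written 5′ to 3′ on the strand of the gene. Capitals mark ACGTG or GCGTG on either strand, the core of the element that hypoxia-inducible factors bind, with overlapping matches counted once. The windows are chr7:138909457-138909756 for Bnip3, chr4:147904860-147905159 for the most upstream start of Mfn2, and chr16:29579084-29579383 for Opa1.
Bnip3 promoter: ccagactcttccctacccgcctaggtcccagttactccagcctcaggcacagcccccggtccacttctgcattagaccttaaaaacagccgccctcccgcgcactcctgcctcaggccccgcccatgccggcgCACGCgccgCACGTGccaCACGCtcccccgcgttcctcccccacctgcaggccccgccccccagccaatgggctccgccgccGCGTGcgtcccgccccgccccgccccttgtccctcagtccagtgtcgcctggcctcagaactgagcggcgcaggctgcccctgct
Mfn2 promoter: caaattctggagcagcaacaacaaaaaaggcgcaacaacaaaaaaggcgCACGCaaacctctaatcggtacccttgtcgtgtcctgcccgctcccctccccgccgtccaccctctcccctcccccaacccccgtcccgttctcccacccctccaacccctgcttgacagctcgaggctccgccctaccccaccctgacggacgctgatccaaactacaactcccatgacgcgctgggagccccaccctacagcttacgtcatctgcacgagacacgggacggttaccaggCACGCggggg
Opa1 promoter: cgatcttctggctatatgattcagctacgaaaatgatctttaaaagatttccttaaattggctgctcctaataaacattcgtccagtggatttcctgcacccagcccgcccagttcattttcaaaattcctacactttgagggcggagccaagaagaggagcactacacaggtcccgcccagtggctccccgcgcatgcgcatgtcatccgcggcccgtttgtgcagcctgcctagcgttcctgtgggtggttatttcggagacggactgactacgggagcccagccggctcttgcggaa
The Bnip3 window held 4 separate matches, and its second match holds the palindrome CACGTG. The Mfn2 window held 2 matches and the Opa1 window held 0. Of 32851 promoter windows of the same length, 43.8% held at least 1 match, 2.44% held as many separate matches as Bnip3 or more, and 7.15% held CACGTG. The Bnip3 window is also rich in G and C (71.7%, against 62.3% for Mfn2 and 53.3% for Opa1), and these shares were not adjusted for that. Of the other 6 genes with a promoter in the table, Dnm1l, Fis1 and Pink1 each held 1 match in at least 1 window, and Mff, Mfn1 and Fundc1 held 0. The motif AAGGTCA, which estrogen-related receptors bind, was in 4.72% of all windows and in 0 windows of these genes. A match in letters says nothing of binding. The promoter of Bnip3l was not analysed here.

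Bnip3l, the paralog of Bnip3 that clears mitochondria from maturing red blood cells, was not called. Bnip3l (Entrez gene 12177, chromosome 14 from 66985238 to 67008877) was at 126, 134, 123 and 127 CPM in the FA hearts. Levels in DE were 134, 130.0, 132 and 138 CPM, within and just above the range in FA. Its log2 fold change of 0.07 had a 95% interval of -0.12 to 0.25, which stays within a difference of 25% in either direction (edgeR QL test, adjusted p = 0.649). Per kilobase of transcript, the ratio of Bnip3 to Bnip3l was 1.41, 1.31, 1.26 and 1.17 in the FA hearts. It was 2.14, 2.87, 2.75 and 2.90 in the DE hearts, so the ratio was higher in each DE heart than in any FA heart. The difference in ratio was not tested.

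Fundc1 (Entrez gene 72018, chromosome X from 17519967 to 17572329), the third receptor, is also linked to hypoxia, in which its protein is dephosphorylated. Its level was 20.8 to 24.0 CPM in FA and 20.5 to 23.5 CPM in DE. The log2 fold change was -0.02 (95% interval -0.23 to 0.19, edgeR QL test, adjusted p = 0.934).

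Pink1 (Entrez gene 68943, chromosome 4 from 138313409 to 138326296), the kinase that marks depolarised mitochondria for Parkin, was at 162, 223, 169.7 and 149 CPM in the FA hearts. The 4 DE values were 144, 136, 141 and 144 CPM. The groups did not overlap, yet the gap between the lowest FA library and the highest DE library was small, and FA replicate 3 was well above the other FA libraries. The log2 fold change was -0.32 (95% interval -0.59 to -0.05, edgeR QL test, adjusted p = 0.140). Without FA replicate 3 it was -0.18 (adjusted p = 0.249). With the length and GC offsets it was -0.46 and was called (adjusted p = 0.0264).

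**Figure D2:**
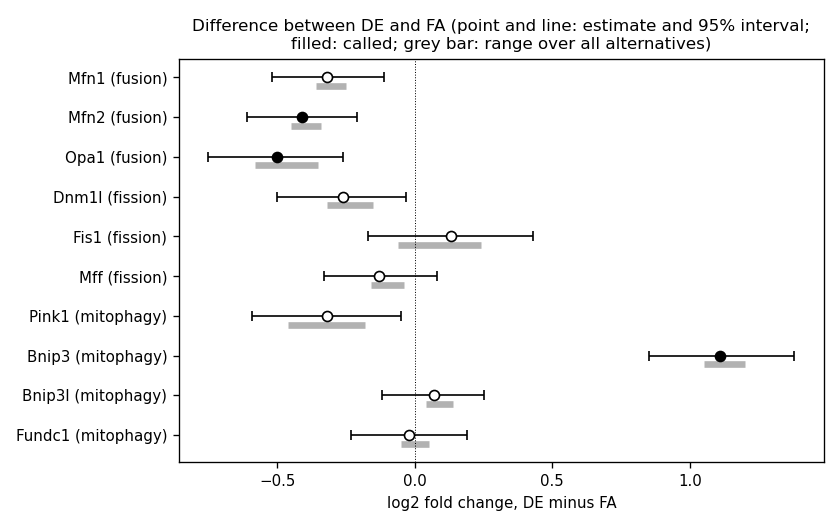
Log2 fold change of DE against FA for the 10 genes, with points and lines for the estimate and its 95% interval, filled points for called genes and grey bars for the range over 21 alternative fits. Bnip3 stands at 1.11 and keeps to between 1.05 and 1.20, Opa1 and Mfn2 stand at -0.50 and -0.41, and the intervals of Fis1, Mff, Bnip3l and Fundc1 include 0.

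Per kilobase of the longest transcript, the order of levels differed between the groups. In FA, Mfn2 was highest at 131 ± 7.89 CPM per kilobase (SD, n = 4), above 97.4% of the tested genes with a known length. Pink1 (74.1 ± 13.7), Mfn1 (68.1 ± 2.83), Dnm1l (56.9 ± 4.86), Fis1 (52.7 ± 10.4) and Bnip3 (50.3 ± 4.41) followed, then Bnip3l (39.1 ± 1.53), Mff (38.4 ± 2.77) and Opa1 (36.4 ± 3.83). Fundc1 was lowest at 11.3 ± 0.673 CPM per kilobase. The FA ranges of Pink1 and Mfn1 overlapped, as did those of Dnm1l and Fis1, of Fis1 and Bnip3, of Bnip3l and Mff, and of Mff and Opa1, so these neighbours were not set apart. In DE, Bnip3 moved from rank 6 to rank 1, at 109 ± 14.8 CPM per kilobase, with Mfn2 next at 98.5 ± 6.61, and their DE ranges overlapped (88.0 to 122 and 89.98 to 106). Genes with several transcripts can be shorter in these cells than the longest annotated one, so levels between genes are approximate.

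**Figure D3:**
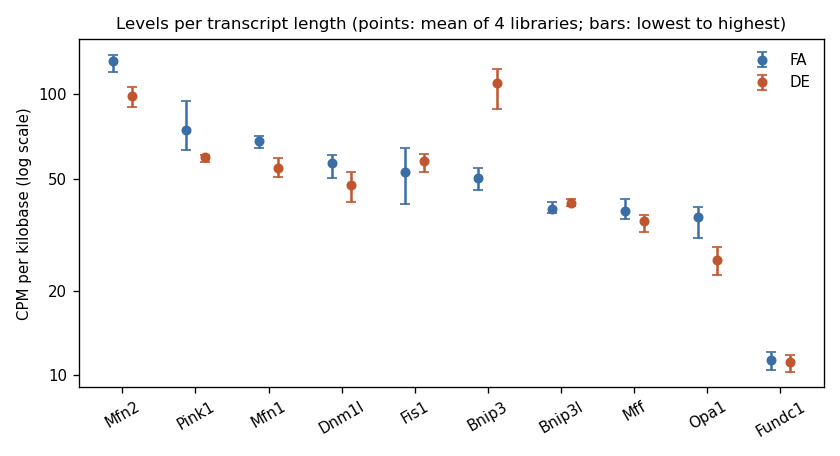
Level of each gene per kilobase of its longest transcript on a log scale, in order of the FA mean, with points for the mean of 4 libraries and bars from the lowest to the highest library. Mfn2 leads in FA at 131 CPM per kilobase, while Bnip3 goes from 50.3 in FA to 109 in DE and stands level with Mfn2.

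Fusion and fission genes were also set against each other within each library. Per kilobase, the ratio of Opa1 to Dnm1l was 0.658, 0.616, 0.652 and 0.631 in the FA hearts. It was 0.539, 0.551, 0.533 and 0.542 in the DE hearts. All DE ratios were below all FA ratios, and FA replicate 3, which was low for both genes, lay close to the other FA libraries. The ratio of Mfn2 to Dnm1l was 2.23 to 2.38 in FA and 2.00 to 2.18 in DE, again without overlap. The ratio of Mfn2 to Mfn1 was 1.69 to 2.13 in FA and 1.70 to 1.98 in DE, and here the groups overlapped. These ratios were not tested.

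Other genes of the same processes were read from 5 lists, and a sixth list held genes of the hypoxia response, to which Bnip3 also belongs. Of 113 listed genes, 111 were tested and 8 were called, 5 as higher and 3 as lower. This was 7.21% of them, near the 5.80% of all tested genes. Gdap1 and Calcoco2, with 36 and 2 fragments over all libraries, did not pass the filter. The lists had median log2 fold changes of -0.08 for 19 genes of fusion, cristae and inner membrane proteases, -0.12 for 14 fission adaptors and modulators, -0.14 for 18 genes of mitophagy receptors and the Pink1-Parkin pathway, -0.11 for 31 core autophagy genes, and -0.19 for 9 genes of mitochondrial transport. With library totals in place of TMM factors, which moved the median of all genes to 0.075, these medians were -0.01, -0.05, -0.07, -0.04 and -0.13. Estimates lay below 0 for 14 of the 19, 12 of the 14, 12 of the 18, 25 of the 31 and 8 of the 9 genes, beside 7401 of all 14966 tested genes, and with library totals for 10, 8, 10, 21 and 8.

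No gene of fusion, cristae and the inner membrane proteases was called, and 5 of the 19 had an unadjusted p under 0.05 (26.3%, near the 25.6% of all tested genes). Miga1, an outer membrane protein that promotes fusion, had a mean of 41.1 ± 6.80 CPM in FA against 29.4 ± 3.65 in DE (SD over 4 hearts), and its log2 fold change was -0.49 (edgeR QL test, adjusted p = 0.0586). DESeq2, edgeR's likelihood ratio test, the length and GC offsets, 1 surrogate variable and the fit without FA replicate 3 each called it. Its paralog Miga2, named after its values were seen, had the largest estimate of the list, -0.57 (adjusted p = 0.170), and was called with the name number as a term, within number 11 alone, with the offsets and with 1 surrogate variable. Chchd6, a protein of the cristae junctions that was also named after its values were seen, lay on the other side at 0.41 (adjusted p = 0.138). Afg3l2, a subunit of the inner membrane AAA protease, was at -0.29 (adjusted p = 0.0744) and Slc25a46, an outer membrane carrier that contacts the fusion machinery, at -0.23 (adjusted p = 0.123).

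In the list of fission adaptors and modulators, 1 gene fell and 1 rose, out of 14 (14.3%, beside 5.80% of all tested genes). Without overlap between the groups, 2 of the 14 were lower in DE and 2 higher, beside 7.26% and 7.43% of all tested genes. Akap1, which anchors protein kinase A at the outer membrane, where the kinase phosphorylates Drp1, fell from 180.1 ± 8.90 to 113 ± 17.4 CPM (SD over 4 hearts). Its log2 fold change was -0.67 with an SE of 0.12 (edgeR QL test, adjusted p = 0.0101), with FA libraries at 173 to 192 CPM and DE libraries at 92.9 to 134 CPM. Akap1 was called without each of the 8 libraries in turn and within number 11 alone (-0.86, adjusted p = 0.00756), but not when the test asked for a difference beyond 25% (adjusted p = 0.0904). Mtfr2, a mitochondrial fission regulator, rose from 11.7 ± 0.623 to 16.6 ± 2.62 CPM, by 0.51 on the log2 scale (adjusted p = 0.0453). It was called without DE replicate 1, and not without any of the other 7 libraries, with adjusted p-values from 0.0688 to 0.136, and not within number 11 alone (0.33, adjusted p = 0.277). Nor was Mtfr2 called with the number as a term (adjusted p = 0.208), by limma-voom (0.0568) or when the test asked for a difference beyond 25% (0.395). Mul1, a ubiquitin ligase of the outer membrane, was at -0.37 (adjusted p = 0.0992) and was called with the length and GC offsets and without FA replicate 6.

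Of the mitophagy receptors and the Pink1-Parkin pathway, Pptc7 was the gene called by the QL test, 1 of 18 (5.56%, near the 5.80% of all tested genes). Without overlap between the groups, 6 of the 18 were lower in DE and 0 higher, beside 7.26% and 7.43% of all tested genes. Pptc7, a mitochondrial phosphatase that holds back mitophagy through Bnip3 and Bnip3l, was at 60.4 to 84.0 CPM in FA and 45.0 to 57.7 CPM in DE. It fell, with a log2 fold change of -0.57 and an SE of 0.12 (edgeR QL test, adjusted p = 0.0258). The call was lost without FA replicate 2, 3 or 4 or DE replicate 3 or 5 (adjusted p from 0.0526 to 0.0915) and within number 11 alone (-0.46, adjusted p = 0.145). Usp8, a deubiquitinase that acts on Parkin, was at -0.34 (adjusted p = 0.0521), and the autophagy receptor Nbr1 at -0.39 (adjusted p = 0.0596). DESeq2 and edgeR's likelihood ratio test called both, with adjusted p-values of 0.00914 and 0.0289 for Usp8 and of 0.0152 and 0.0271 for Nbr1. Both were also called without DE replicate 1 (0.0401 and 0.0322), Usp8 with a filter at a mean of 1 CPM (0.0491), and Nbr1 with the length and GC offsets (0.0121) and 1 surrogate variable (0.0106).

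In core autophagy, the QL test called 1 of 31 genes, Ulk2. This was 3.23% of the list, and 19.4% had an unadjusted p under 0.05, both below the shares of all tested genes (5.80% and 25.6%). A lower level in DE without overlap between the groups was seen for 4 of the 31, beside 7.26% of all tested genes. Ulk2, a kinase that starts autophagosome formation, was at 80.2 to 103 CPM in FA and 61.0 to 77.8 CPM in DE, a log2 fold change of -0.47 (edgeR QL test, adjusted p = 0.0403). It lost its call without FA replicate 2, 3 or 4 or DE replicate 3, 5 or 7 (adjusted p from 0.0600 to 0.128) within number 11 alone (-0.36, adjusted p = 0.221) and with library totals (-0.40, adjusted p = 0.0648). The lipid transfer protein Atg2b and the protease Atg4c had adjusted p-values of 0.0762 and 0.0798. DESeq2 and the likelihood ratio test called both, with adjusted p-values of 0.0356 and 0.0450 for Atg2b and of 0.0407 and 0.0472 for Atg4c.

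Among the 9 genes of mitochondrial transport, Mgarp was called, as higher (11.1% of the list, beside 5.80% of all tested genes, or 3.58% as higher). Without overlap between the groups, 1 of the 9 was lower in DE and 1 higher, beside 7.26% and 7.43% of all tested genes. Mgarp, a mitochondrial protein induced by hypoxia that acts with the Miro and Trak transport proteins, was at 1.87, 1.45, 1.13 and 1.97 CPM in the FA hearts. DE hearts had 3.57, 5.97, 4.79 and 4.80 CPM, above every FA library. The log2 fold change was 1.55 with an SE of 0.22 (edgeR QL test, adjusted p = 0.00306), resting on 20 to 208 fragments per library. Mgarp was called in all 21 alternatives, at 1.34 within number 11 alone. The adaptor Trak2 was at -0.36 (adjusted p = 0.0836, called by DESeq2 at 0.0376) and the Miro protein Rhot1 at -0.23 (adjusted p = 0.148).

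Of the 20 hypoxia-response genes, 3 were called, all as higher (15% of the list, beside 5.80% of all tested genes, or 3.58% as higher). The median log2 fold change of the list was 0.28. Of the 20 genes, 7 were higher in DE without overlap between the groups, beside 7.43% of all tested genes, and 10 of the 20 had an unadjusted p under 0.05, beside 25.6%. Estimates lay below 0 for 5 of the 20, Car9 (-0.35), Kdm3a (-0.23), Ddit4 (-0.14), Mxi1 (-0.13) and Ero1a (-0.05), none of them called, and Vegfa, the growth factor of blood vessels, was at 0.07. DESeq2 and the likelihood ratio test also called P4ha1 (0.52) and P4ha2 (0.70), subunits of the collagen prolyl hydroxylase, as higher. Slc2a1, the glucose transporter GLUT1, rose from 26.9 ± 1.52 to 52.0 ± 9.90 CPM (SD over 4 hearts), a log2 fold change of 0.95 (edgeR QL test, adjusted p = 0.00308), and was called in all 21 alternatives. Egln3, a prolyl hydroxylase that acts on hypoxia-inducible factor, was at 21.8 to 30.9 CPM in FA, and at 32.7, 82.5, 78.7 and 59.1 CPM in the DE hearts. Its log2 fold change was 1.17 (adjusted p = 0.0231), and 0.69 within number 11 alone (adjusted p = 0.131). Egln3 lost its call without FA replicate 2 or 4 or DE replicate 3 (adjusted p from 0.0638 to 0.0707). Ndrg1, which is induced by hypoxia and by differentiation, was at 0.52 (adjusted p = 0.0452). It was called without DE replicate 1 or 7 and not without any of the other 6 libraries (adjusted p from 0.0549 to 0.142), and stood at 0.31 within number 11 alone (adjusted p = 0.234).

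**Figure D4:**
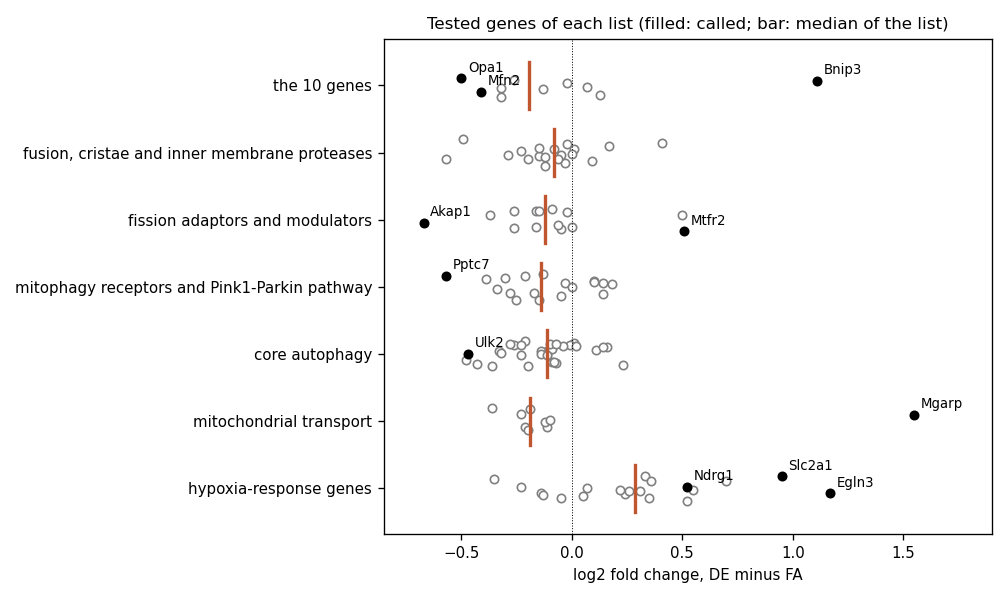
Log2 fold change of DE against FA for the 10 genes and for the tested genes of each related list, with filled points for called genes, open points for the others and a bar for the median of the list. Akap1 and the called genes of the autophagy and mitophagy lists lie below 0, while Mgarp at 1.55, Mtfr2 at 0.51 and the 3 called hypoxia-response genes lie on the same side as Bnip3.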

How the data were processed

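RNA-seq counts of 8 NCM libraries were analysed. The deposited values are raw fragment counts per Entrez gene. The authors selected poly-A RNA, made stranded libraries, aligned reads to mm10 with Tophat, marked duplicates without removing them, and counted with featureCounts. Strand setting and handling of multiply mapped reads are not given in the sources used here. The methods state fewer libraries per group than the table holds, so all were used.

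Symbols and positions came from RefSeq on GRCm38.p6, which is mm10 (25275 of 27179 genes matched), and lengths from GENCODE transcripts. With edgeR 4.0.16 in R 4.3.3, filterByExpr kept 14966 genes at 10 counts, TMM factors set the effective library sizes, and glmQLFit and glmQLFTest tested DE against FA with Benjamini-Hochberg adjustment over all tested genes. Intervals (95%) use the test's standard error. Alternatives used DESeq2 1.42.0, limma 3.58.1 and sva 3.50.0. The code was tested on simulated counts. Named related genes were those called in each list, with the smallest unadjusted p-values added up to 3 per list. Miga2, Chchd6 and the genes of the hypoxia list other than Slc2a1, Egln3 and Ndrg1 were named outside this rule, with their values known. The genes and lists were chosen with earlier results of these data known.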

Additional observations from a re-analysis of the deposited data

Results flagged for a closer look

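Afg3l2 in FA replicate 6 was at 170.4 CPM, apart from the other FA libraries at 183 to 186 CPM. Its gap to the nearest library took 0.843 of the range of the group, over Dixon's 95% limit for 4 samples. This was 1 of 56 groups examined over the named genes, and chance marks about 1 in 20 groups.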

How the results depend on the processing

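Bnip3 was called in all 21 alternatives. Of the 10 genes, 3 were called, and 1 (Bnip3) with the 25% difference built into the test, with the name number as a term and within number 11 alone. Leaving out single libraries gave 1 to 3 calls. Over all genes the 868 calls became 114, 448 and 260 in the fits named for Bnip3, and 237 to 1168 without single libraries. Fundc1, at -0.02, changed sign with upper quartile factors (0.01), library totals (0.05), the name number as a term (0.02), number 11 alone (0.02), and without FA replicate 3 (0.02) or DE replicate 3 (0.02), and ranged from -0.05 to 0.02 when single libraries were left out. Fis1 changed sign with the length and GC offsets (-0.06). Of the related genes, 8 were called, 16 by DESeq2, 15 by the likelihood ratio test, 2 with the 25% difference built in, 5 with the number as a term, 4 within number 11 alone, 16 with the length and GC offsets, 16 with 1 surrogate variable, and 3 to 13 without single libraries (3 without FA replicate 2 or 4 or DE replicate 3, 13 without DE replicate 1). Over all genes the count of 868 ran from 114 to 2007. The fits without a library have fewer samples and the offsets restrict the fit to 13851 genes with a known length. Otherwise the cause was not tested. No paired analysis was possible because the labels do not match FA hearts with DE hearts. Each of the 10 genes had at least 402 fragments in every library.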

Other observations

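Of the 6 genes that were called as higher among the 10 genes and the related lists (Bnip3, Mtfr2, Mgarp, Slc2a1, Egln3 and Ndrg1), 5 had their lowest DE level in DE replicate 1, the exception being Ndrg1. For Egln3 the level in that heart, 32.7 CPM, was close to the highest FA level of 30.9 CPM, while the other DE hearts were at 59.1 to 82.5 CPM. DE replicate 7, which carries the same number in its name, was at 59.1 CPM. The 5 genes that were called as lower (Mfn2, Opa1, Akap1, Pptc7 and Ulk2) had their lowest DE level in DE replicate 3 for 3 genes, in DE replicate 5 for 1 and in DE replicate 7 for 1, and in none of them in DE replicate 1. This order of hearts was noticed after the values were seen and was not tested.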
